A study of Mus musculus with 60 samples.

Results

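ANH was compared with RES in RNA that a GFP antibody pulled down with tagged ribosomes out of the mPFC, the medial prefrontal cortex, of DBA2/J mice. ANH and RES are 2 of the 4 subtypes that the labels name, and the labels do not spell either name out. The comparison took 12 of the 60 samples of the study, namely the 6 pulldown libraries (IP) of ANH and the 6 of RES, and every gene that passed an expression filter, 16670 of the 55414 genes in the table. The mice of all groups were of the inbred strain DBA2/J and expressed GFP-L10a, the ribosomal protein L10a fused to green fluorescent protein. The labels call the cells in the pulldown "aPVT projector", and they give neither the promoter or vector that carried the tag nor the age or sex of the mice. The study describes 5 days of social defeat stress, without saying which groups went through it. For reference the same contrast was taken in bulk mPFC without antibody (Input, 6 ANH and 6 RES libraries), and each subtype was set beside the 6 pulldown libraries of the group labelled NS. Whether those 6 libraries stem from as many separate mice is not stated, so every p-value below measures scatter among libraries, part of which may be technical.

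Ribosomal protein L10a sits in the large subunit of the ribosome, and a GFP tag on it lets an antibody collect ribosomes together with the messenger RNAs they are translating. The RNA recovered therefore comes mainly from cells that carry the tag, whereas bulk tissue adds up all cells of the region. Pyramidal neurons of the mPFC send axons to the paraventricular thalamus, a midline structure studied in arousal, reward seeking and responses to stress. A pulldown level reflects how much of a messenger RNA the tagged cells hold and how much of it is bound to ribosomes, and these cannot be separated here.

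Library totals were 19078928 to 24562708 counts in ANH pulldowns and 20838366 to 24757997 in RES pulldowns. The mitochondrial genome's own genes accounted for 0.024% ± 0.00385 of the counts in ANH pulldowns and 0.0268% ± 0.00216 in RES pulldowns (SD, n = 6 each). The pulldowns held markers of excitatory neurons above the bulk level and markers of glia far below it, in counts scaled to a common library size (CPM) and summed over each list. Excitatory markers summed to 8495 to 9467 CPM (median 9062) in ANH pulldowns and to 5469 to 5909 CPM (median 5781) in ANH Input. Astrocyte markers summed to 1098 to 1205 CPM (median 1120.3) in ANH pulldowns and to 10615 to 10865 CPM (median 10665) in ANH Input, and microglial markers to 32.97 to 50.9 CPM (median 40.7) in ANH pulldowns and 882 to 929 CPM (median 901) in ANH Input. Markers of layer 6 neurons, which include the neurons that project to the thalamus, were lower in ANH pulldowns, at 499 to 523 CPM (median 513), than in ANH Input, at 894 to 909.6 CPM (median 905). The labelled projection target could not be checked from these markers. Rpl10a itself, whose reads could come from the native gene and from the tag, which was not tested, had 356 to 389 CPM (median 357) in ANH pulldowns, against 437 to 508 CPM (median 484) in RES pulldowns (log2 fold change -0.39 ± 0.05 SE, adjusted p = 2.7e-06). No ANH pulldown reached the lowest RES pulldown. In bulk tissue Rpl10a had 85.8 to 108 CPM (median 92.7) in ANH Input, against 77.8 to 87.4 CPM (median 83.5) in RES Input, with a log2 fold change 0.19 ± 0.06 SE, adjusted p = 0.095.

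In the pulldown 1535 of 16670 genes, or 9.21%, differed between ANH and RES at an adjusted p below 0.05 by edgeR's quasi-likelihood test. Of these 630 genes were higher in ANH, 3.78% of those tested, and 905 were lower, 5.43%. These shares over all genes are the background for the list counts below. Most differences were small, with a median size of 0.31 on the log2 scale among the genes that passed. A change of at least 2-fold was reached by 26 of the higher and 57 of the lower genes, and by 10 and 15 when the higher group also averaged at least 10 CPM. Every ANH library lay above every RES library for 324 genes, 1.94% of those tested, of which 269 passed, and below every RES library for 439 genes, 2.63%, of which 391 passed. The smallest adjusted p among the genes named here were those of Ap3b2, Igfbp4 and Clasp2, all lower in ANH.

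**Figure D1:**
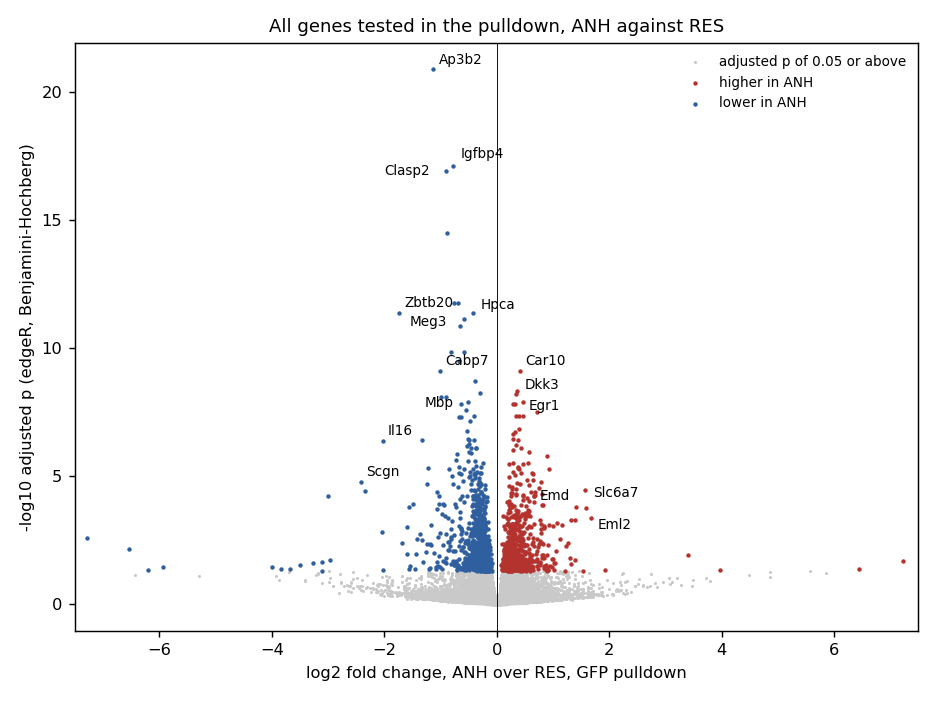
Each point is 1 of the 16670 genes tested in the pulldown, with its log2 fold change of ANH over RES on the horizontal axis and -log10 of its adjusted p on the vertical axis. The 905 genes in blue were lower and the 630 in red higher in ANH, and the highest point is Ap3b2. The 40 genes past 3 on either side averaged at most 9.37 CPM in either group.

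The same contrast in bulk tissue called fewer genes and in the other balance. In Input 766 of 18170 genes, 4.22%, differed between ANH and RES, 451 of them higher in ANH (2.48%) and 315 lower (1.73%). Among the 16329 genes tested in both fractions, 238 were called in both, which is 15.5% of the pulldown calls and 31.3% of the Input calls. Of these 207 moved in the same direction and 31 in opposite directions, 18 of them lower in ANH pulldowns and higher in ANH Input. The test of the difference between fractions called 538 of 18937 genes, 2.84%, 238 (1.26%) toward a higher value in the pulldown and 300 (1.58%) toward a lower one. Of the 1535 genes that differed in the pulldown, 363, or 23.6%, passed that test. The remaining pulldown calls were not shown to be unlike bulk tissue.

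The lower genes were also shorter. The median length was 2005 bases for genes lower in ANH pulldowns, 3981 bases for genes higher and 3133 bases for genes that did not pass. Among genes of at least 10 CPM, the shortest 10% had a median log2 fold change of -0.13 in the pulldown and of -0.096 in Input, and the longest 10% 0.03 and 0.04. The trend with length thus ran the same way in both fractions. Its part in the results for lists of short genes was not tested. The ribosomal, mitochondrial and proteasome lists are given beside other genes of at least 10 CPM within the length span of most members. Level was not matched beyond that floor, and lengths were not matched within the span.

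The clearest fall in ANH pulldowns was that of Ap3b2, the neuronal beta subunit of the adaptor complex AP-3, which sorts cargo from endosomes into synaptic vesicles and lysosome-related organelles. Ap3b2 (chr7:81110147-81143673 as deposited) had 1024 to 1185 CPM (median 1121) in ANH pulldowns, against 2339.7 to 2545 CPM (median 2427) in RES pulldowns. The groups did not come near each other, and ANH was 2.19-fold lower (log2 fold change -1.13 ± 0.04 SE, adjusted p = 1.3e-21). The NS pulldowns lay nearer to RES, at 1928 to 2161 CPM (median 2093). In bulk tissue Ap3b2 was far lower in level, with 212 to 236 CPM (median 220.4) in ANH Input, against 193 to 236 CPM (median 218) in RES Input, and the ranges overlapped (log2 fold change 0.05 ± 0.04 SE, adjusted p = 0.66). The fall in the pulldown differed from the bulk value (log2 difference -1.17 ± 0.06 SE, adjusted p = 8.4e-24).

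Igfbp4, a secreted protein that binds insulin-like growth factors and limits their action, fell as well. Its level (chr11:98932070-98945218) was 395 to 418 CPM (median 409) in ANH pulldowns, against 673 to 733 CPM (median 686) in RES pulldowns (log2 fold change -0.77 ± 0.04 SE, adjusted p = 7.6e-18). It was the only one of the 13 tested genes of the insulin-like growth factor system to pass in the pulldown. Clasp2, a protein that stabilizes growing microtubule ends, had 338 to 402 CPM (median 362) in ANH pulldowns, against 614 to 753 CPM (median 687) in RES pulldowns (log2 fold change -0.90 ± 0.04 SE, adjusted p = 1.3e-17). In both of these genes the 6 ANH libraries lay below all 6 RES libraries. The NS pulldowns lay within the RES range for Clasp2. For Igfbp4 they lay between ANH and RES, at 610 to 644 CPM, and RES was called higher than NS by edgeR (log2 fold change 0.14, adjusted p = 0.010). Input showed no call for either gene, with log2 fold changes of -0.04 for Igfbp4 and 0.15 for Clasp2. Both passed the test between fractions.

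**Figure D2:**
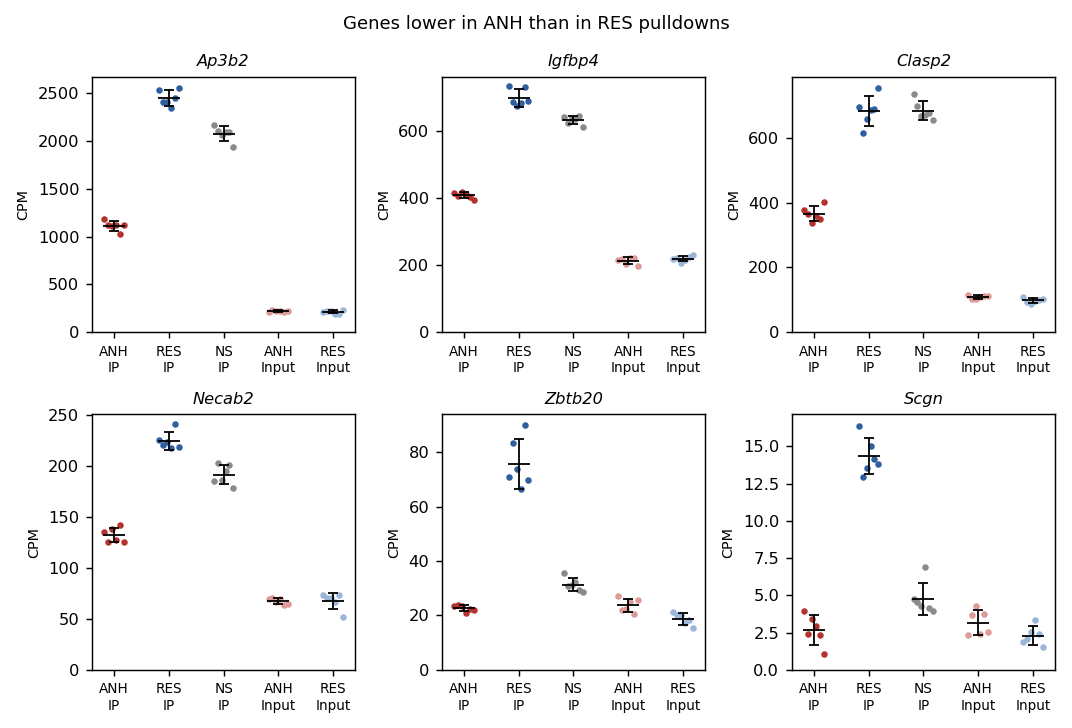
Each panel shows CPM (vertical axis, from 0) of 1 gene in the 6 libraries of ANH, RES and NS pulldowns and of ANH and RES Input, as points, with the mean and SD as bars. In all 6 genes the ANH pulldowns lie below the RES pulldowns, and in Ap3b2 they lie at 1024 to 1185 CPM against 2340 to 2545 CPM.

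Other genes with the smallest adjusted p also fell, and they were named for that p and not as members of a pathway. Tmod3, which caps the slow-growing end of actin filaments, had 109 to 118 CPM (median 117) in ANH pulldowns, against 166 to 200.3 CPM (median 184) in RES pulldowns (log2 fold change -0.68 ± 0.05 SE, adjusted p = 1.8e-12). Wipf3, a partner of the actin-nucleating WASP proteins, fell by a log2 of 0.90 and Pfn1, which supplies actin monomers, by 0.39, and in both no ANH library reached a RES library. Necab2, a neuronal calcium-binding protein, had 125 to 142 CPM (median 131) in ANH pulldowns, against 218 to 241 CPM (median 222) in RES pulldowns (log2 fold change -0.76 ± 0.05 SE, adjusted p = 1.8e-12). Cabp7, a calcium sensor of the Golgi, had 30.7 to 52.00 CPM (median 44.3) in ANH pulldowns, against 80.3 to 95.8 CPM (median 87.5) in RES pulldowns (log2 fold change -1.01 ± 0.09 SE, adjusted p = 7.8e-10). Cabp7 went the other way in bulk tissue, at 38.2 to 48.2 CPM (median 41.4) in ANH Input, against 29.5 to 36.3 CPM (median 35.9) in RES Input (log2 fold change 0.32 ± 0.07 SE, adjusted p = 0.0066). The kinase Jak1, which relays cytokine signals, fell by a log2 of 0.59 (adjusted p = 7.6e-12), and Lmo3, a transcriptional cofactor, by 0.67 (adjusted p = 3.3e-10).

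The largest falls in fold terms among genes of at least 10 CPM included a transcription factor, a calcium sensor and a growth factor, and in these RES stood apart from both ANH and NS. Zbtb20, a zinc finger repressor known for its role in hippocampal and cortical neuron identity, had 20.97 to 23.8 CPM (median 22.9) in ANH pulldowns, against 66.4 to 90.1 CPM (median 72.4) in RES pulldowns, with NS at 28.7 to 35.4 CPM (median 30.96). ANH was 3.34-fold lower than RES (log2 fold change -1.74 ± 0.13 SE, adjusted p = 4.2e-12), and in Input the log2 fold change was 0.34 (adjusted p = 0.061). Scgn, which encodes the calcium sensor secretagogin, had 1.02 to 3.93 CPM (median 2.66) in ANH pulldowns, against 12.96 to 16.4 CPM (median 14.01) in RES pulldowns, with NS at 3.92 to 6.88 CPM (median 4.39) (log2 fold change -2.42 ± 0.36 SE, adjusted p = 1.7e-05). Ntf3, the neurotrophin NT-3, had 4.04 to 6.99 CPM (median 6.53) in ANH pulldowns, against 13.7 to 17.3 CPM (median 15.3) in RES pulldowns, with NS at 6.55 to 9.55 CPM (median 7.41) (log2 fold change -1.34 ± 0.16 SE, adjusted p = 4e-07). In these 3 genes the NS range lay wholly below the RES range. The NS and ANH ranges overlapped in Scgn and Ntf3 and not in Zbtb20. Amigo2, a cell adhesion protein enriched in hippocampal area CA2, also had RES above both other groups, with 12.5 to 16.2 CPM (median 13.8) in ANH pulldowns, against 23.4 to 32.2 CPM (median 26.9) in RES pulldowns (log2 fold change -0.94 ± 0.16 SE, adjusted p = 0.00013). NS pulldowns were at 11.3 to 18.6 CPM (median 12.4), a range that overlapped ANH and lay wholly below RES.

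Other large falls were those in which RES lay nearer to NS. Il16, named as a cytokine and also expressed as a neuronal scaffold form, had 2.13 to 5.86 CPM (median 3.56) in ANH pulldowns, against 11.9 to 19.5 CPM (median 14.4) in RES pulldowns (log2 fold change -2.03 ± 0.25 SE, adjusted p = 4.2e-07). Trpm3, a heat-activated cation channel, had 9.15 to 18.2 CPM (median 10.6) in ANH pulldowns, against 21.6 to 27.5 CPM (median 23.3) in RES pulldowns (log2 fold change -1.03 ± 0.17 SE, adjusted p = 6e-05). Kcng2, a modifier subunit of voltage-gated potassium channels, fell by a log2 of 0.99 (adjusted p = 8.1e-09), and it was lower in bulk ANH tissue too (log2 fold change -0.46 ± 0.12 SE, adjusted p = 0.015). Rasd1, a small G protein induced by glucocorticoids, had a log2 fold change of -1.06, Cacng6, a calcium channel subunit of the same family as the AMPA receptor auxiliaries, of -1.22, and Lats2, a kinase of the Hippo pathway, of -1.17. Of these 6 genes only Lats2 had overlapping ANH and RES pulldown ranges.

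Among the larger rises some genes varied widely between libraries. Eml2, a microtubule-binding protein, had 39.3 to 90.3 CPM (median 72.3) in ANH pulldowns, against 17.97 to 25.6 CPM (median 21.1) in RES pulldowns (log2 fold change 1.67 ± 0.31 SE, adjusted p = 0.00043). Slc6a7, the proline transporter of glutamatergic terminals, had 52.8 to 84.3 CPM (median 74.4) in ANH pulldowns, against 20.5 to 25.2 CPM (median 24.1) in RES pulldowns (log2 fold change 1.58 ± 0.28 SE, adjusted p = 0.00018). Emd, the nuclear envelope protein emerin, had 33.6 to 44.03 CPM (median 37.6) in ANH pulldowns, against 10.01 to 20.7 CPM (median 13.6) in RES pulldowns (log2 fold change 1.41 ± 0.25 SE, adjusted p = 0.00016). In all 3 genes the 6 ANH libraries lay above all 6 RES libraries, yet single libraries of other groups came close to or within the ANH range. ANH Input library 1 was the highest of its group for Eml2, Slc6a7 and Emd, at 103, 79.9 and 34.95 CPM against Input medians of 34.9, 32.9 and 22.03 CPM. NS pulldown library 1 was the highest of its group for the same 3 genes, at 33.6, 67.8 and 26.6 CPM against NS medians of 17.6, 25.1 and 12.8 CPM. These genes thus varied together between libraries of 1 group, and what moved with them was not tested. The same held for Stk32c, a kinase with 53.6 to 101 CPM (median 83.9) in ANH pulldowns, against 33.5 to 42.9 CPM (median 40.9) in RES pulldowns, and Stx4a, a plasma membrane fusion protein with 26.2 to 42.8 CPM (median 38.8) in ANH pulldowns, against 13.3 to 23.1 CPM (median 19.1) in RES pulldowns. The same 2 libraries were again the highest of their groups for both, at 97.8 and 50.8 CPM for Stk32c and at 46.7 and 37.05 CPM for Stx4a. Eml2 passed the test between fractions (log2 difference 1.41 ± 0.41 SE, adjusted p = 0.041), and Slc6a7, Emd, Stk32c and Stx4a did not, with adjusted p of 0.17, 0.42, 0.32 and 0.24.

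Other rises included genes whose libraries lay close together, such as Car10 and Dkk3. Car10, a secreted carbonic anhydrase-like protein that binds neurexins, had 209 to 222 CPM (median 217) in ANH pulldowns, against 157 to 168 CPM (median 162) in RES pulldowns (log2 fold change 0.41 ± 0.04 SE, adjusted p = 7.8e-10). Dkk3, a secreted protein of the Dickkopf family, had 821 to 888 CPM (median 853) in ANH pulldowns, against 639 to 725 CPM (median 643) in RES pulldowns (log2 fold change 0.36 ± 0.03 SE, adjusted p = 4.8e-09). Rspo2, a secreted enhancer of Wnt signals, had 41.3 to 51.6 CPM (median 44.8) in ANH pulldowns, against 18.8 to 31.6 CPM (median 23.3) in RES pulldowns (log2 fold change 0.92 ± 0.13 SE, adjusted p = 5.1e-06). None of these 3 ranges overlapped, and the NS pulldowns lay near RES for Car10 and Rspo2, at medians of 159.6 and 25.3 CPM, and between the subtypes for Dkk3, at 748 CPM. Max, the shared partner of the MYC family of transcription factors, rose by a log2 of 1.39 (adjusted p = 0.00054). Dhx9, an RNA helicase, rose by 0.82. Dynll2, a light chain of dynein and myosin V, had 81.1 to 119 CPM (median 104) in ANH pulldowns, against 51.3 to 68.1 CPM (median 58.8) in RES pulldowns (log2 fold change 0.80). Like Eml2, it was highest in library 1 of ANH Input, at 113 CPM, and in library 1 of the NS pulldowns, at 109.8 CPM, which lay within the ANH pulldown range. Sema7a and Cntfr, a membrane-anchored semaphorin and the receptor subunit for ciliary neurotrophic factor, rose by 1.16 and 1.13 with overlapping ranges.

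Most genes of the ribosome were lower in ANH pulldowns. Of 86 cytosolic ribosomal protein genes tested, 67 were lower in ANH and 0 higher by edgeR, where 5.43% of all genes were lower, and none was higher at an unadjusted p below 0.05, by DESeq2 or by voom. The median log2 fold change was -0.27, against -0.01 over all genes tested. Their summed level was 8612 to 9556 CPM (median 9079) in ANH pulldowns, against 9924 to 11580.2 CPM (median 11093) in RES pulldowns, without overlap, and 8209 to 9955 CPM (median 9506) in NS pulldowns. In bulk tissue 5 of the 86 were lower, 0 higher, and the median was -0.10. These are short genes, at a median of 1100 bases, and the 2960 other genes in their length span had a median of -0.07 in the pulldown and -0.05 in Input. Many have processed pseudogenes of near-identical sequence, and the sources used here do not say how the counting shared reads between copies.

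Among single members, Rps14, a protein of the small subunit, had 209.7 to 253 CPM (median 243) in ANH pulldowns, against 289 to 356 CPM (median 332) in RES pulldowns (log2 fold change -0.47 ± 0.06 SE, adjusted p = 1.2e-06). Rpl24, Rpl14 and Rpl11 of the large subunit fell by log2 values of 0.43, 0.38 and 0.44 (adjusted p = 5.4e-06, 8e-06 and 1.5e-05), and in all 4 genes no ANH pulldown reached a RES pulldown. Messenger RNAs of this class are known for a run of pyrimidines at their first bases through which growth signals control their translation, so start sites of 4 members that fell are shown. The 30 bases around the start that RefSeq gives (GRCm38.p6, 5′ to 3′ along the gene's strand) were taken, and capitals mark the longest run of C and T that overlaps the 5 bases on either side of the start.
Rpl14 (chr9:120571502-120571531, plus strand): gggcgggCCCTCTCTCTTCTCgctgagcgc
Rpl10a (chr17:28328456-28328485, plus strand): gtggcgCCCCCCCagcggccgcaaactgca
Rpl24 (chr16:55966260-55966289, plus strand): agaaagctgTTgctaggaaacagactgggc
Rpl11 (chr4:136053379-136053408, minus strand): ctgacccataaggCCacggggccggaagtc
The run was 14 bases long in Rpl14, where it crossed the annotated start. It was 7 bases long in Rpl10a, where it ended before the annotated start and so lay outside the annotated messenger RNA. In Rpl24 and Rpl11 it was 2 bases long, and no longer run overlapped the 5 bases on either side of their annotated starts. By the same overlap rule, a run of at least 6 bases was found in 34 of the 64 ribosomal protein genes matched to the table. It was found in 29 of the 51 matched genes that fell and in 23.04% of all genes in the table. The rule also counts runs that end before the start, as in Rpl10a. How many of the counted runs lie within the messenger RNA was not tested.

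Genes of oxidative phosphorylation, the mitochondrial machinery that makes ATP, gave calls in the same direction. Of 83 nuclear-encoded members tested, 50 were lower and 0 higher in ANH pulldowns by edgeR, at a median log2 fold change of -0.17. None was higher by DESeq2 or voom, and 1 was at an unadjusted p below 0.05. In Input edgeR called 13 lower and 0 higher, at a median of -0.08. The 3371 other genes in their length span had medians of -0.07 in the pulldown and -0.04 in Input. Ndufa4, a cytochrome c oxidase-associated subunit, had 384 to 425 CPM (median 409) in ANH pulldowns, against 481 to 561 CPM (median 527) in RES pulldowns (log2 fold change -0.36 ± 0.06 SE, adjusted p = 8.2e-05). Uqcrc1, a core subunit of complex III, had 599 to 665 CPM (median 632) in ANH pulldowns, against 693 to 774 CPM (median 761) in RES pulldowns (log2 fold change -0.25 ± 0.04 SE, adjusted p = 7.6e-05), and its fall was called in Input as well (log2 fold change -0.10 ± 0.03 SE, adjusted p = 0.027). Ndufb11 of complex I and Uqcrq of complex III fell by log2 values of 0.33 and 0.29. In these 4 genes the pulldown ranges did not overlap. The 15 mitochondrially encoded genes summed to a median of 230 CPM in ANH pulldowns and of 17103 CPM in ANH Input. The part that bulk RNA carried into the pulldown had in their pulldown values was not tested. Of these 15 genes 3 were lower and 0 higher, with 2 to 6 lower and 0 higher over the alternatives. Their median was -0.35 in the pulldown and 0.10 in Input, and 1206 other genes in their length span had -0.12 and -0.09.

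Of 37 proteasome subunits, 12 were lower and 0 higher in ANH pulldowns, at a median of -0.12, and none was higher at an unadjusted p below 0.05 or by DESeq2 or voom. The lower count was 8 without the filter on low counts, 8 in a fit of only the 12 libraries compared, and 15 by DESeq2. In Input 6 were lower and 1 higher, at a median of -0.05. The 3241 other genes in their length span had medians of -0.05 in the pulldown and -0.03 in Input. Psmb3, a beta subunit of the core particle, had 141 to 171 CPM (median 149.7) in ANH pulldowns, against 169 to 200.2 CPM (median 196) in RES pulldowns (log2 fold change -0.33 ± 0.05 SE, adjusted p = 5.5e-05), with overlapping ranges, and Psmb1 fell by a log2 of 0.21 (adjusted p = 0.00082). Of 63 translation initiation and elongation factors, 8 were lower and 1 higher, and 5 were lower in the fit of the 12 libraries. Eif1b, an initiation factor, had 116 to 128 CPM (median 123.2) in ANH pulldowns, against 143 to 176 CPM (median 165) in RES pulldowns (log2 fold change -0.41 ± 0.05 SE, adjusted p = 4e-07). Eef1a1, the factor that brings aminoacyl-tRNA to the ribosome, had 973 to 1076 CPM (median 1013) in ANH pulldowns, against 1107 to 1233 CPM (median 1165) in RES pulldowns (log2 fold change -0.21 ± 0.03 SE, adjusted p = 3.2e-05). Neither gene had overlapping pulldown ranges.

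**Figure D3:**
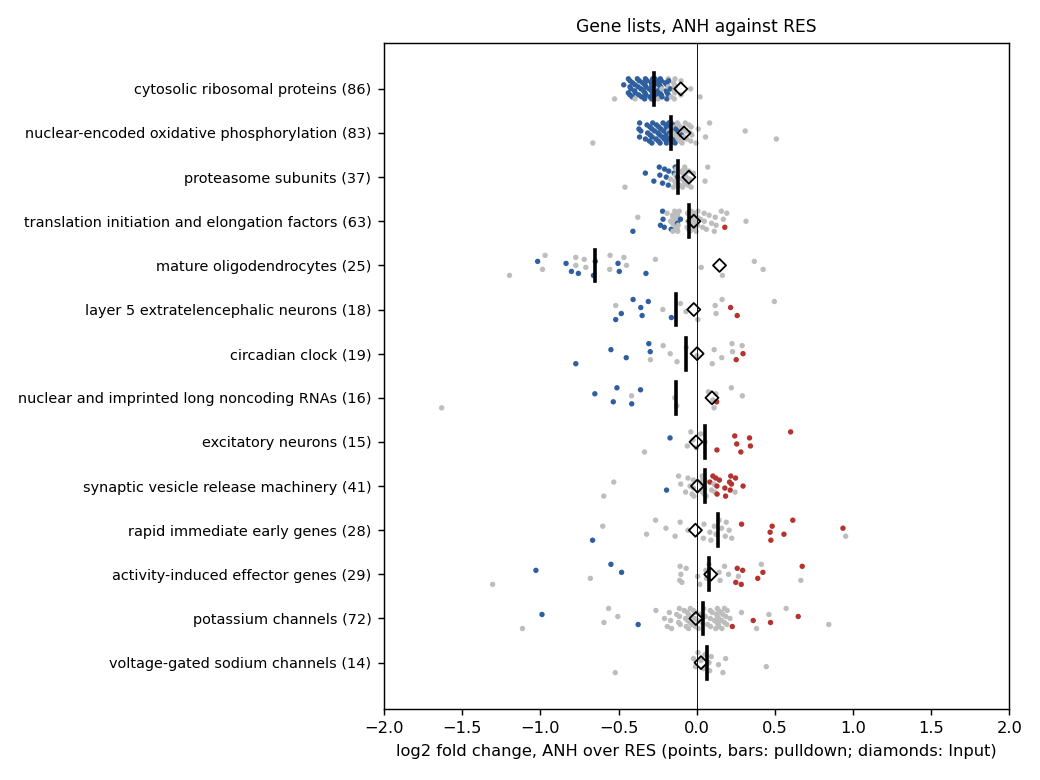
Each point is the log2 fold change of ANH over RES in the pulldown of 1 tested member of a gene list, red where higher and blue where lower at an adjusted p below 0.05 and grey otherwise, with the number tested in brackets. Bars mark the list's median in the pulldown and diamonds its median in Input. Ribosomal proteins lie at a median of -0.27 and mature oligodendrocyte genes at -0.65 in the pulldown, whose Input median is 0.15.

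Genes of myelin and of mature oligodendrocytes, the cells that wrap axons, gave calls in opposite directions in the fractions. Of 25 such genes tested in the pulldown, 9 were lower and 0 higher by edgeR, at a median log2 fold change of -0.65. None was higher by DESeq2 or voom, and 1 was at an unadjusted p below 0.05. In Input 10 were higher and 0 lower, at a median of 0.15. Their summed level was 1033 to 1099 CPM (median 1079) in ANH pulldowns, against 1443 to 1554 CPM (median 1499) in RES pulldowns, and in NS pulldowns it was 504 to 559.7 CPM (median 534). In bulk tissue the sum was 6495 to 6758 CPM (median 6632) in ANH Input, against 5719 to 5851 CPM (median 5774) in RES Input. In bulk samples fewer cells of a type and less RNA per cell cannot be told apart, and the part that bulk RNA carried into the pulldown had in these values was not tested.

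Mbp, the myelin basic protein, had 419 to 444 CPM (median 430.3) in ANH pulldowns, against 578 to 664 CPM (median 596) in RES pulldowns (log2 fold change -0.50 ± 0.05 SE, adjusted p = 1.3e-08). In Input it had 2787 to 2884 CPM (median 2863) in ANH Input, against 2399 to 2518 CPM (median 2459.8) in RES Input (log2 fold change 0.21 ± 0.02 SE, adjusted p = 2.3e-09). For Mobp, a further myelin protein, pulldown levels were 48.8 to 65.00 CPM (median 54.6) in ANH pulldowns, against 83.1 to 91.7 CPM (median 87.5) in RES pulldowns, and the log2 fold change was -0.66 in the pulldown and 0.29 in Input. In these genes neither fraction had overlapping ranges, and both passed the test between fractions, with log2 differences of -0.71 and -0.94. Cnp, Mag and Qdpr fell in the pulldown by log2 values of 0.80, 1.02 and 0.33 and were not called in Input. Other glia gave few calls. Of 24 astrocyte genes 2 were lower and 0 higher by edgeR, 1 being higher by DESeq2 and 2 at an unadjusted p below 0.05, of 16 genes of oligodendrocyte precursors 1 was lower, and by edgeR none of 17 microglial or 17 endothelial and mural genes was called. At an unadjusted p below 0.05, 1 microglial gene was lower and 1 endothelial or mural gene higher, and of all alternatives only voom called any of them, 1 microglial gene.

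**Figure D4:**
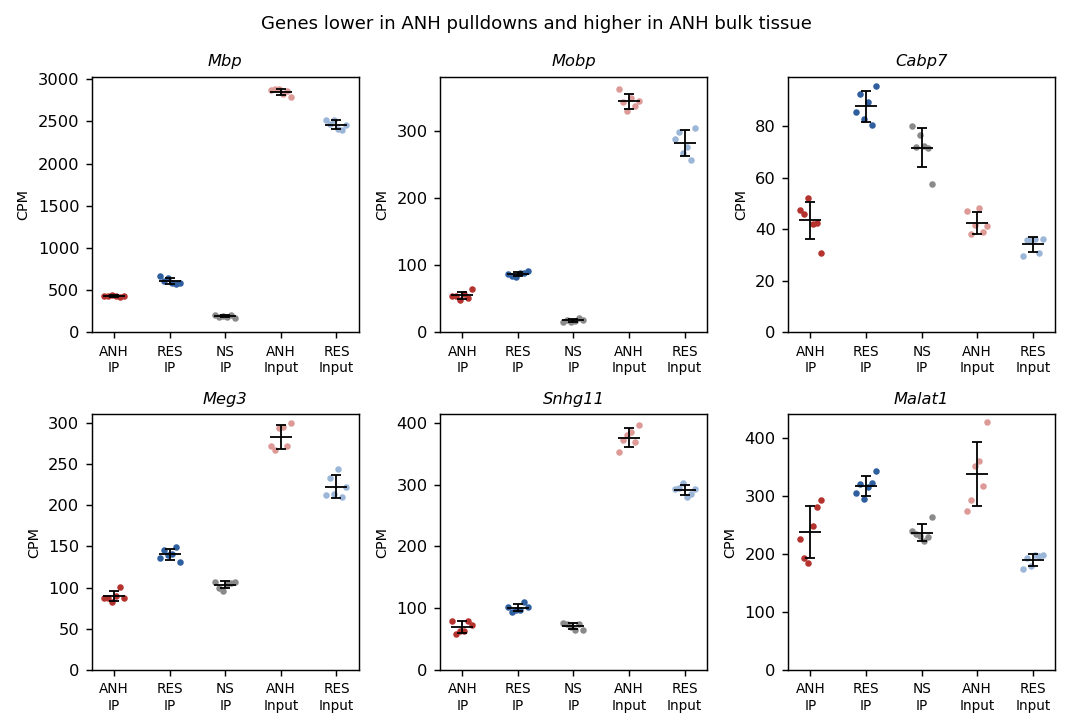
Each panel shows CPM (vertical axis, from 0) of 1 gene in the 6 libraries of ANH, RES and NS pulldowns and of ANH and RES Input, as points, with the mean and SD as bars. Mbp, Mobp, Cabp7, Meg3, Snhg11 and Malat1 are lower in ANH than in RES pulldowns and higher in ANH than in RES Input.

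Among long noncoding RNAs that stay mostly in the nucleus, 3 were called in opposite directions in the fractions. Of 16 nuclear and imprinted noncoding RNAs tested, 5 were lower and 1 higher in ANH pulldowns, and 3 were higher and 0 lower in ANH Input. Meg3, an imprinted transcript, had 82.7 to 101 CPM (median 87.5) in ANH pulldowns, against 131 to 149.8 CPM (median 139.7) in RES pulldowns (log2 fold change -0.65 ± 0.05 SE, adjusted p = 1.4e-11). In bulk tissue it had 267 to 299.6 CPM (median 283) in ANH Input, against 210.2 to 244 CPM (median 218) in RES Input (log2 fold change 0.35 ± 0.04 SE, adjusted p = 7.5e-08). Snhg11, a small nucleolar RNA host, had 58.5 to 79.9 CPM (median 67.9) in ANH pulldowns, against 94.5 to 110.1 CPM (median 99.6) in RES pulldowns (log2 fold change -0.53 ± 0.06 SE, adjusted p = 1.7e-07), and its log2 fold change in Input was 0.37 (adjusted p = 2.2e-10). Malat1, a nuclear speckle RNA, had 184 to 294 CPM (median 238) in ANH pulldowns, against 295 to 344 CPM (median 319) in RES pulldowns (log2 fold change -0.42 ± 0.12 SE, adjusted p = 0.019), and in Input 275 to 428 CPM (median 334) in ANH Input, against 175 to 199 CPM (median 195) in RES Input (log2 fold change 0.83 ± 0.09 SE, adjusted p = 7.5e-08). No ANH and RES ranges overlapped in either fraction for these 3 genes, and NS pulldowns lay near ANH for Snhg11 and Malat1, at medians of 71.6 and 232 CPM. Gas5, a host of small nucleolar RNAs, fell by a log2 of 0.36 in the pulldown (adjusted p = 0.0014) and had -0.09 in Input (adjusted p = 0.48). Miat fell by 0.51 (adjusted p = 0.044), and that call was lost under 4 alternatives, at adjusted p of 0.0546 to 0.0898. The summed oligodendrocyte markers were likewise lower in ANH pulldowns and higher in ANH Input, and their part in the noncoding RNAs was not tested.

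Of the genes that neurons switch on within minutes of firing, more were called higher than lower in ANH pulldowns, and most were not called. Of 28 rapid immediate early genes tested, 7 were higher and 1 lower, at a median log2 fold change of 0.13, and in Input 5 were higher and 4 lower. Over all genes 3.78% were higher and 5.43% lower in the pulldown, and 2.48% and 1.73% in Input. Egr1, a zinc finger transcription factor, had 255 to 279 CPM (median 258) in ANH pulldowns, against 176 to 203 CPM (median 189) in RES pulldowns (log2 fold change 0.47 ± 0.05 SE, adjusted p = 4.5e-08). In bulk tissue Egr1 had 226 to 243 CPM (median 236) in ANH Input, against 225 to 254 CPM (median 230.1) in RES Input, the ranges overlapped (log2 fold change 0.01 ± 0.04 SE, adjusted p = 0.94), and the fractions differed (log2 difference 0.47 ± 0.06 SE, adjusted p = 6e-07). Fos, the classical marker of recent activity, had 24.3 to 37.2 CPM (median 26.2) in ANH pulldowns, against 16.3 to 24.4 CPM (median 20.4) in RES pulldowns (log2 fold change 0.47 ± 0.11 SE, adjusted p = 0.0051), and in Input its log2 fold change was -0.22 (adjusted p = 0.26), with a difference between fractions at adjusted p = 0.0033. Arc, a synaptic plasticity protein, had 72.4 to 101 CPM (median 76.9) in ANH pulldowns, against 47.6 to 64.8 CPM (median 60.4) in RES pulldowns (log2 fold change 0.48 ± 0.10 SE, adjusted p = 0.0015).

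NS pulldowns lay nearer to ANH than to RES, by the medians, for all 6 genes of this list named here. Egr1 was at 272 to 324 CPM (median 289) and Fos at 26.05 to 29.03 CPM (median 26.98) in NS pulldowns. Npas4, a factor induced by calcium entry, had 7.98 to 20.2 CPM (median 14.5) in ANH pulldowns, against 6.14 to 9.64 CPM (median 7.21) in RES pulldowns and 16.1 to 20.2 CPM (median 19.2) in NS pulldowns. Its rise was seen in both fractions, with log2 fold changes of 0.94 in the pulldown and 0.71 in Input (adjusted p = 0.00081 and 0.00018). Btg2, an antiproliferative early gene, also rose in both, by 0.56 and 0.39. Nr4a1, an orphan nuclear receptor and early gene, went the other way, with 31.6 to 42.8 CPM (median 36.6) in ANH pulldowns, against 48.00 to 68.01 CPM (median 60.9) in RES pulldowns (log2 fold change -0.67 ± 0.09 SE, adjusted p = 8e-06). It fell to the same degree in Input (log2 fold change -0.67 ± 0.06 SE, adjusted p = 4.2e-09), and neither fraction had overlapping ranges.

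Slower, activity-induced effector genes had 7 of 29 members higher and 3 lower, against 3.78% and 5.43% of all genes, at a median of 0.08. In Input 3 were higher and 3 lower, against 2.48% and 1.73% of all genes. The lower count in the pulldown was 3 under every alternative. The members that follow are 5 that rose and Bdnf, and none of the 3 lower ones. Rgs4, which shortens G protein signals, had 287 to 326 CPM (median 320.04) in ANH pulldowns, against 245 to 269 CPM (median 256) in RES pulldowns (log2 fold change 0.29 ± 0.03 SE, adjusted p = 2.3e-07). Scg2, a precursor of secretory granule peptides, had 243 to 263 CPM (median 251) in ANH pulldowns, against 201 to 212 CPM (median 209) in RES pulldowns (log2 fold change 0.28 ± 0.04 SE, adjusted p = 1e-06). Bmp3, a secreted inhibitor of bone morphogenetic protein signals, had 38.9 to 55.5 CPM (median 44.03) in ANH pulldowns, against 24.5 to 32.9 CPM (median 27.5) in RES pulldowns (log2 fold change 0.67 ± 0.11 SE, adjusted p = 4.2e-05). Mapk4, an atypical MAP kinase, and Nrn1, the plasticity protein neuritin, rose by 0.39 and 0.25, and in these 5 genes the pulldown ranges did not overlap. Bdnf, the brain-derived neurotrophic factor, had 67.1 to 81.6 CPM (median 75.8) in ANH pulldowns, against 61.6 to 72.4 CPM (median 67.9) in RES pulldowns and did not pass (log2 fold change 0.18 ± 0.06 SE, adjusted p = 0.062), except by DESeq2 at an adjusted p of 0.0336.

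**Figure D5:**
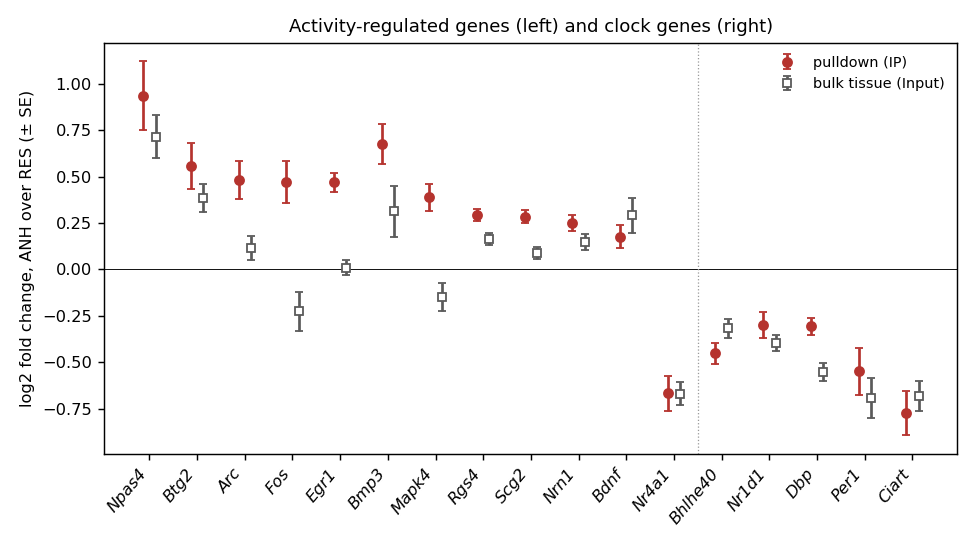
Points show the log2 fold change of ANH over RES (vertical axis) with its SE for named activity-regulated genes on the left and clock genes on the right, filled circles for the pulldown and open squares for Input. Egr1 is higher by 0.47 in the pulldown and by 0.01 in Input. The 5 clock genes shown, those called lower in the pulldown out of 19 tested, are lower in both fractions. The 2 clock genes called higher in the pulldown are not shown.

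Genes of the circadian clock were lower in ANH in both fractions where they fell in the pulldown. Of 19 clock genes tested, 5 were lower and 2 higher in the pulldown, and 6 were lower and 2 higher in Input. The pulldown median was -0.07, with 9 of the 19 above 0, and the genes that follow are the 5 lower ones. Over all genes 5.43% were lower and 3.78% higher in the pulldown, and 1.73% and 2.48% in Input. Ciart, a repressor of the CLOCK and BMAL1 pair, had 28.3 to 33.2 CPM (median 30.6) in ANH pulldowns, against 46.5 to 56.1 CPM (median 52.01) in RES pulldowns (log2 fold change -0.77 ± 0.12 SE, adjusted p = 2.1e-05), and in Input 24.04 to 26.6 CPM (median 25.04) in ANH Input, against 33.1 to 49.2 CPM (median 40.04) in RES Input (log2 fold change -0.68 ± 0.08 SE, adjusted p = 6.1e-07). Dbp, an output factor of the clock, had 85.6 to 89.7 CPM (median 88.4) in ANH pulldowns, against 102 to 117 CPM (median 107) in RES pulldowns (log2 fold change -0.31 ± 0.05 SE, adjusted p = 1.8e-05), and in Input 116 to 118 CPM (median 116) in ANH Input, against 157 to 182 CPM (median 170.2) in RES Input (log2 fold change -0.55 ± 0.05 SE, adjusted p = 1.2e-09). Bhlhe40, which represses the same pair, had 121 to 144 CPM (median 138) in ANH pulldowns, against 172 to 210.2 CPM (median 182) in RES pulldowns (log2 fold change -0.45 ± 0.06 SE, adjusted p = 7.7e-07). Per1, a core repressor, and Nr1d1, the nuclear receptor REV-ERB alpha, fell by log2 values of 0.55 and 0.30 in the pulldown and of 0.69 and 0.39 in Input. None of the 5 genes had overlapping ranges in either fraction, and 4 of them did not differ between fractions at the threshold, while Dbp did (log2 difference 0.26 ± 0.06 SE, adjusted p = 0.012). By the medians, NS pulldowns lay nearer to ANH than to RES for all 5 genes. In NS pulldowns Ciart was at 23.01 to 35.5 CPM (median 26.7) and Bhlhe40 at 115 to 131 CPM (median 123.2). Per1, Nr1d1 and Dbp had NS pulldown medians of 18.1, 86.7 and 67.1 CPM. The labels give no time of day for the dissections, and the part of sampling hour was not tested.

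CLOCK and BMAL1 bind the hexamer CACGTG, the E-box, in promoters of several of these genes. Of the 300-base windows that RefSeq promoters give (250 bases before to 50 after the start, GRCm38.p6), 7.15% of 32851 hold CACGTG, which reads the same on both strands, and 8.09% of the 27025 genes have such a window. Among 17 clock genes matched, 5 hold it, and among the 4 matched of those that fell, 2 do. The stretches around it are shown for both, in the direction of the gene, with the hexamer in capitals.
Ciart (chr3:95882300-95882389, minus strand): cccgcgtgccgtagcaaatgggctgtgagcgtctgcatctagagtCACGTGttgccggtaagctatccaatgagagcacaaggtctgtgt
Per1 (chr11:69098738-69098827, plus strand): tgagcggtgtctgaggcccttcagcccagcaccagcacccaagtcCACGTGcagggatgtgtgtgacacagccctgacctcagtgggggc
The hexamer starts 116 bases before the start of Ciart and 166 before that of Per1. These matches describe the letters of the windows only.

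Markers of pyramidal neuron classes gave calls in both directions. Of 15 markers of excitatory neurons, 7 were higher and 1 lower in ANH pulldowns, at a median of 0.05, with 6 of the 15 below 0. In Input 3 were higher and 2 lower. The lower count in the pulldown was 0 to 2 over the alternatives. The excitatory markers that follow are among the 7 higher ones. Nrgn, the calmodulin-binding protein neurogranin of dendritic spines, had 1737 to 1978 CPM (median 1912) in ANH pulldowns, against 1417 to 1579 CPM (median 1478) in RES pulldowns (log2 fold change 0.34 ± 0.04 SE, adjusted p = 6.2e-07). In Input it was lower (log2 fold change -0.23 ± 0.06 SE, adjusted p = 0.025), and the fractions differed (log2 difference 0.59 ± 0.08 SE, adjusted p = 5.5e-07). Tbr1, a transcription factor of deep-layer neurons, had 46.7 to 57.6 CPM (median 52.8) in ANH pulldowns, against 37.8 to 44.99 CPM (median 41.9) in RES pulldowns (log2 fold change 0.34 ± 0.07 SE, adjusted p = 0.0011), and it rose in Input by 0.23. Neurod6 rose by 0.26 in the pulldown and by 0.31 in Input.

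Markers of layer 5 neurons that project outside the cortex were more often called lower than higher. Of 18 tested, 7 were lower and 2 higher, at a median of -0.13, against 2 lower and 0 higher in Input. Bcl11b, the transcription factor CTIP2 of subcerebral neurons, had 109 to 131 CPM (median 119) in ANH pulldowns, against 140.2 to 218 CPM (median 161) in RES pulldowns (log2 fold change -0.52 ± 0.07 SE, adjusted p = 2.7e-06). Crym, a thyroid hormone-binding protein, had 245 to 285 CPM (median 262) in ANH pulldowns, against 328 to 366 CPM (median 351) in RES pulldowns (log2 fold change -0.41 ± 0.04 SE, adjusted p = 4.5e-08). Pcp4, a calmodulin regulator, had 168 to 197 CPM (median 173) in ANH pulldowns, against 217 to 241 CPM (median 224) in RES pulldowns (log2 fold change -0.35 ± 0.05 SE, adjusted p = 7e-06). Nefm, a neurofilament subunit, fell in both fractions, by 0.31 in the pulldown and by 0.20 in Input. Pulldown ranges overlapped in none of these 4 genes, and NS levels were at or above those of RES, at medians of 197 CPM for Bcl11b and 359 CPM for Crym. Ldb2, a cofactor of LIM domain proteins, went the other way, by 0.26 (adjusted p = 0.0012).

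Of 17 markers of layer 6 and layer 6b, 4 were higher and 2 lower. The lower ones were Hs3st4 and Crym, which is also counted on the layer 5 list. Hs3st4, a heparan sulfate sulfotransferase of corticothalamic neurons, had 17.2 to 25.7 CPM (median 23.1) in ANH pulldowns, against 32.4 to 37.4 CPM (median 34.8) in RES pulldowns (log2 fold change -0.63 ± 0.09 SE, adjusted p = 8.3e-06). Trbc2, a T cell receptor constant region used here as a layer 6 marker, had 28.2 to 32.3 CPM (median 28.99) in ANH pulldowns, against 15.8 to 20.1 CPM (median 17.6) in RES pulldowns (log2 fold change 0.71 ± 0.08 SE, adjusted p = 3.3e-08). Neither pair of ranges overlapped and neither gene was called in Input. Of 19 markers of layers 2 to 4, 1 was higher and 1 lower, a share near the background. Of 23 markers of inhibitory neurons, 1 was higher and 2 lower. The markers of striatal medium spiny neurons, which tissue next to the mPFC could add, had 3 of 13 higher and 3 lower, with 10 of the 13 above 0 at a median of 0.26. One that was lower was Ppp1r1b, the dopamine-regulated phosphatase inhibitor DARPP-32, with 54.4 to 61.1 CPM (median 56.01) in ANH pulldowns, against 75.6 to 83.4 CPM (median 81.6) in RES pulldowns (log2 fold change -0.50 ± 0.06 SE, adjusted p = 1.1e-06).

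Of the genes of synaptic vesicle release, some were higher in ANH pulldowns by small amounts. Of 41 tested, 14 were higher and 1 lower, against 3.78% and 5.43% of all genes, at a median of 0.05. In Input 6 were higher and 4 lower, against 2.48% and 1.73% of all genes. Syt1, the calcium sensor of fast release, had 1243 to 1334 CPM (median 1281) in ANH pulldowns, against 1003 to 1094 CPM (median 1039) in RES pulldowns (log2 fold change 0.30 ± 0.03 SE, adjusted p = 1.5e-08). Syn2, a synapsin that holds vesicles in reserve, had 1509 to 1622 CPM (median 1541) in ANH pulldowns, against 1255 to 1383 CPM (median 1349) in RES pulldowns (log2 fold change 0.22 ± 0.03 SE, adjusted p = 3.3e-06). Cplx1, a clamp on the fusion complex, had 396 to 457 CPM (median 429.7) in ANH pulldowns, against 333 to 392 CPM (median 367) in RES pulldowns (log2 fold change 0.22 ± 0.04 SE, adjusted p = 0.00014), and NS was at 437 to 479 CPM (median 462). The ranges of these 3 genes did not overlap. Vamp2, the vesicle fusion protein, rose by 0.13 (adjusted p = 0.00088) with overlapping ranges. All 4 passed the test between fractions.

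At the postsynaptic side rises and falls were mixed. Of 26 NMDA receptor subunits and scaffolds, 4 were higher and 2 lower, against 3.78% and 5.43% of all genes. Dlg4, the scaffold PSD-95, had 65.2 to 97.9 CPM (median 73.7) in ANH pulldowns, against 45.1 to 51.4 CPM (median 48.1) in RES pulldowns (log2 fold change 0.65 ± 0.10 SE, adjusted p = 1.4e-05), and it differed from Input (log2 difference 0.75 ± 0.13 SE, adjusted p = 6.6e-05). Homer2, a scaffold of metabotropic receptors, had 74.8 to 89.2 CPM (median 81.8) in ANH pulldowns, against 92.9 to 106 CPM (median 103) in RES pulldowns (log2 fold change -0.31 ± 0.06 SE, adjusted p = 0.00092). Of 23 AMPA and kainate receptor genes, 4 were higher and 1 lower, and the lower count was 2 or 3 under 4 alternatives. The lower gene was Gria1, an AMPA receptor subunit, with 426 to 488 CPM (median 461) in ANH pulldowns, against 514 to 549.7 CPM (median 526) in RES pulldowns (log2 fold change -0.21 ± 0.04 SE, adjusted p = 0.0014). Cacng3, an auxiliary subunit that brings AMPA receptors to the surface, had 318 to 389 CPM (median 332) in ANH pulldowns, against 271 to 303 CPM (median 287) in RES pulldowns (log2 fold change 0.25 ± 0.04 SE, adjusted p = 6e-05). Grm2 and Grm3, presynaptic and glial inhibitory glutamate receptors, were the 2 of 7 metabotropic receptors that passed, with rises of 0.30 and 0.34 (adjusted p = 0.011 and 0.0026).

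Among 17 GABA receptor genes 4 were higher and 3 lower, against 3.78% and 5.43% of all genes. The lower count was 1 without the filter on low counts and in the fit of the 12 libraries compared. Gabra2, an alpha subunit, had 111 to 130.3 CPM (median 124) in ANH pulldowns, against 149.8 to 165 CPM (median 162) in RES pulldowns (log2 fold change -0.38 ± 0.06 SE, adjusted p = 1.2e-05), and it was not called in Input. NS pulldowns were nearer to ANH for Gabra2, at 103 to 125 CPM (median 109).

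Calls among calcium sensors of the hippocalcin family went both ways. Hpca, hippocalcin, had 1136 to 1244 CPM (median 1172) in ANH pulldowns, against 1512 to 1649 CPM (median 1589.5) in RES pulldowns (log2 fold change -0.42 ± 0.03 SE, adjusted p = 4.2e-12), with NS at 1212 to 1255 CPM (median 1231). Ncald, neurocalcin delta, had 697 to 728 CPM (median 724) in ANH pulldowns, against 558 to 597 CPM (median 575) in RES pulldowns (log2 fold change 0.32 ± 0.03 SE, adjusted p = 1.5e-08). Hpcal4 had 1732 to 1911 CPM (median 1835) in ANH pulldowns, against 1482 to 1667 CPM (median 1556) in RES pulldowns (log2 fold change 0.21 ± 0.03 SE, adjusted p = 2.4e-05). No ranges overlapped between subtypes, and all 3 passed the test between fractions. The list of calmodulin kinases and calcium sensors had 6 of 27 members higher and 3 lower. Of 72 potassium channel genes 4 were higher and 2 lower, shares near those of all genes. Of 14 voltage-gated sodium channel genes none was called by edgeR, though 1 was higher by DESeq2 and by voom and 2 were at an unadjusted p below 0.05.

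Of 20 neuropeptide genes 3 were higher and 1 lower, against 3.78% and 5.43% of all genes, at a median of 0.13. The lower count was 2 by DESeq2, by voom and with the replicate block. The higher count was 2 without the filter on low counts and with the replicate block. It was 4 by DESeq2, by voom and in the fit of only the 12 libraries compared. The higher ones were Npy, Scg2 and Penk, the enkephalin precursor (log2 fold change 0.26 ± 0.08 SE, adjusted p = 0.043). Sst, somatostatin, had 48.7 to 62.5 CPM (median 56.1) in ANH pulldowns, against 67.03 to 82.99 CPM (median 77.9) in RES pulldowns (log2 fold change -0.46 ± 0.07 SE, adjusted p = 3.4e-05), with NS at 24.5 to 29.5 CPM (median 27.8). Npy, neuropeptide Y, had 51.8 to 65.2 CPM (median 62.9) in ANH pulldowns, against 33.7 to 48.4 CPM (median 45.5) in RES pulldowns (log2 fold change 0.49 ± 0.09 SE, adjusted p = 0.00036), with NS at 25.4 to 36.3 CPM (median 28.7). Both subtypes were called higher than NS for both genes, and pulldown ranges of ANH and RES did not overlap. In Input neither was called, and both lay far higher, at medians of 486 CPM for Sst and 223 CPM for Npy in ANH, so their part that came from bulk RNA in the pulldown was not tested. Oprk1, the kappa opioid receptor, and Cnr1, the cannabinoid receptor CB1, were the 2 of 23 peptide, opioid and cannabinoid receptors that passed, against 4 in the fit of only the 12 libraries compared and 3 by DESeq2 and by voom. Oprk1 had 5.36 to 11.2 CPM (median 7.77) in ANH pulldowns, against 1.8 to 6.85 CPM (median 2.83) in RES pulldowns (log2 fold change 1.27 ± 0.30 SE, adjusted p = 0.004), at low levels and with overlapping ranges, and it differed from Input (log2 difference 1.72 ± 0.42 SE, adjusted p = 0.0089). Cnr1 had 63.5 to 80.3 CPM (median 69.2) in ANH pulldowns, against 46.9 to 63.7 CPM (median 52.8) in RES pulldowns (log2 fold change 0.39 ± 0.09 SE, adjusted p = 0.0048).

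Of 9 receptors and binding proteins for glucocorticoids and corticotropin-releasing hormone, 1 was higher and 2 lower, and 2 were higher by DESeq2. The second lower one beside Nr3c2 was Fkbp4, a cochaperone of the receptors (log2 fold change -0.19 ± 0.05 SE, adjusted p = 0.010). Nr3c2, the mineralocorticoid receptor, had 14.6 to 21.3 CPM (median 17.1) in ANH pulldowns, against 24.3 to 33.7 CPM (median 28.5) in RES pulldowns (log2 fold change -0.72 ± 0.10 SE, adjusted p = 2.5e-06), without overlap. Nr3c1, the glucocorticoid receptor, had 66.7 to 88.01 CPM (median 78.9) in ANH pulldowns, against 54.2 to 71.9 CPM (median 65.6) in RES pulldowns (log2 fold change 0.28 ± 0.07 SE, adjusted p = 0.01), with overlapping ranges. Both passed the test between fractions, with log2 differences of -0.84 and 0.37. Of 20 glucocorticoid-induced genes 2 were higher and 3 lower. Mt1, a metallothionein, had 54.1 to 67.99 CPM (median 58.7) in ANH pulldowns, against 84.02 to 100.2 CPM (median 91.1) in RES pulldowns (log2 fold change -0.63 ± 0.07 SE, adjusted p = 5.2e-08), and Cdkn1a, the cell cycle inhibitor p21, had 57.9 to 67.7 CPM (median 62.1) in ANH pulldowns, against 41.8 to 52.3 CPM (median 46.8) in RES pulldowns (log2 fold change 0.43 ± 0.06 SE, adjusted p = 7.7e-06). Fkbp5, a chaperone of the glucocorticoid receptor and a standard readout of its activity, had 16.2 to 27.5 CPM (median 19.3) in ANH pulldowns, against 18.6 to 29.9 CPM (median 25.2) in RES pulldowns and did not pass (log2 fold change -0.31 ± 0.14 SE, adjusted p = 0.17). Among 27 genes of MAP kinase feedback and of the RGS family, 4 were higher and 4 lower. The lower ones include Rgs14, a signal regulator known from hippocampal area CA2, with 122 to 143 CPM (median 128) in ANH pulldowns, against 182 to 204 CPM (median 189) in RES pulldowns (log2 fold change -0.56 ± 0.06 SE, adjusted p = 2.7e-08).

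The remaining lists stand against 3.78% higher and 5.43% lower over all genes, and many rest on 1 to 5 calls. Synaptic adhesion genes had 5 of 31 members higher and 3 lower, and sodium and calcium pumps had 3 of 15 higher and 1 lower. Tubulins, neurofilaments and microtubule proteins had 3 of 29 higher and 5 lower, and heat shock proteins 1 of 29 higher and 5 lower. Chaperones of the endoplasmic reticulum had 3 of 27 higher, and enzymes of cholesterol synthesis 3 of 23 higher, with none lower in either by edgeR, 1 in each being lower at an unadjusted p below 0.05. Voltage-gated calcium channels had 2 of 16 higher and 2 lower, receptors for dopamine and noradrenaline 2 of 12 higher and 1 lower (1 higher and 3 lower with the replicate block, 3 lower by voom), and glycolysis genes 1 of 22 higher and 2 lower. Of 46 histone modifiers and chromatin remodelers 2 were higher, of 26 imprinted protein-coding genes 2, of 12 serotonin receptors 1, of 10 acetylcholine receptors 1, of 5 HCN channel genes 1 and of 11 meningeal fibroblast genes 1, and edgeR called none of these lower. At an unadjusted p below 0.05, 7 chromatin genes and 1 serotonin receptor were lower. DESeq2 called 3 chromatin genes lower, and voom 2 chromatin genes and 1 serotonin receptor. Without the filter on low counts, 1 of the chaperones of the endoplasmic reticulum was higher and 3 of the tubulin list were lower. Of 18 innate immune genes 1 was lower, and none of the 5 choroid plexus or 6 red blood cell genes was called, although 3 of the last were lower at an unadjusted p below 0.05 and 1 by DESeq2 and by voom.

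Set beside NS, both subtypes had calls of their own. ANH differed from NS in 1233 of the 16670 genes in the pulldown, 7.4%, and RES from NS in 727, 4.36%. The 2 contrasts share the NS libraries, so their values are given side by side only. Ap3b2 had log2 fold changes of -0.90 (adjusted p = 2.5e-18) for ANH over NS and 0.24 (adjusted p = 8.2e-05) for RES over NS. Clasp2 had -0.90 (adjusted p = 1.1e-17) for ANH and -0.00 (adjusted p = 0.98) for RES. Zbtb20 had -0.46 (adjusted p = 0.017) for ANH and 1.28 (adjusted p = 4.4e-09) for RES. Hpca had -0.06 (adjusted p = 0.27) for ANH and 0.36 (adjusted p = 1.8e-10) for RES. Ap3b2 and Clasp2 thus differed from NS mainly in ANH by size, and Zbtb20 and Hpca mainly in RES.

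Among the groups of genes, ribosomal proteins had a median log2 fold change of -0.04 for ANH over NS and 0.23 for RES over NS. Oxidative phosphorylation genes had -0.14 for ANH and 0.03 for RES. Mature oligodendrocyte genes had 1.22 for ANH and 1.91 for RES. Rapid immediate early genes had -0.07 for ANH and -0.18 for RES. Layer 5 markers had -0.39 for ANH and -0.17 for RES. For single genes, Egr1 had -0.17 (adjusted p = 0.036) for ANH and -0.64 (adjusted p = 4.1e-11) for RES, Dbp 0.38 (adjusted p = 7.3e-07) and 0.68 (adjusted p = 5.7e-13), and Mbp 1.15 (adjusted p = 7.3e-18) and 1.66 (adjusted p = 1.6e-22).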

How the data were processed

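The authors deposited 1 table of expected counts per gene for 60 libraries (55414 genes), a unit read from the values, of which 88.4% were whole within 1e-06. Per the submitters' processing notes, Trimmomatic 0.32, TopHat2 2.0.13, Bowtie2 2.2.3 and mm10 were used. The sources used here name neither a counting tool nor a strand setting. Gene positions are printed as deposited. Only 0.755% of 38933 matched genes start where GRCm38 places them, so their build is not known.

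Counts were rounded and tested with edgeR 4.0.16 (R 4.3.3, quasi-likelihood, TMM, filterByExpr minimum count 10, Benjamini-Hochberg at 0.05). Each fraction's 30 libraries entered a fit of 5 groups, and both fractions a fit of 10 groups for the test between fractions. The common coefficient of variation was 23.7% in pulldowns and 18.6% in Input. For the 25% of genes with the highest mean level in pulldowns, the median gene-wise value was 7.41%. CPM use TMM factors. No 2 libraries of a group agreed within sampling noise. The code was tested on simulated data. RefSeq promoters (GRCm38.p6) gave the sequences. Alternatives were RLE factors, DESeq2 1.42.0, voom with quality weights (limma 3.58.1), no filter, fewer libraries and a replicate block. Beside lists, other genes of at least 10 CPM in the same length span were added after seeing the data.

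The members and lists were chosen with earlier results of these data known. Genes were named by rule: the 20 largest rises and falls and the 20 smallest adjusted p at 10 CPM or more (predicted genes and pseudogenes left out), up to 6 members per list, the 10 smallest adjusted p in Input and in the test between fractions, and 7 fixed genes. Figures and text name only some of these, and a few genes are not reported here.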

Additional observations from a re-analysis of the deposited data

Results flagged for a closer look

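In 12 of the 220 groups of 6 libraries formed by the named genes in ANH and RES pulldowns, 1 library lay apart from the other 5 by Dixon's criterion, and chance gives that in about 1 group in 20. In RES pulldowns these were library 5 for Necab2, at 241 CPM against 218 to 225 in the others, and library 1 for Rasd1, at 21.4 against 13.3 to 16.2. In ANH pulldowns library 1 was high for Egr1, at 279 CPM against 255 to 260 in the others, and for Cacng3, at 389 against 318 to 338, and low for Npy, at 51.8 against 60.9 to 65.2. Library 2 was high for Fos, at 37.2 against 24.3 to 28.6. Library 4 was high for Trpm3, at 18.2 against 9.15 to 11.99, and for Trbc2, at 32.3 against 28.2 to 29.7, and low for Gas5, at 21.5 against 24.1 to 25.5. Library 5 was low for Tmod3, at 109 against 115 to 118, and for Rgs4, at 287 against 313 to 326. Library 6 was low for Stx4a, at 26.2 against 38.1 to 42.8.

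For 78 of the 110 named genes the log2 fold change of ANH over RES differed between pulldown and Input in the edgeR test of that difference, and the values that follow are the pulldown minus Input differences. Among the falls they were -1.17 for Ap3b2, -1.04 for Clasp2, -0.72 for Igfbp4, -0.75 for Necab2, -0.78 for Tmod3, -0.65 for Jak1, -0.88 for Wipf3, -0.75 for Lmo3, -1.32 for Cabp7, -0.28 for Hpca, -0.30 for Pfn1 and -0.95 for Cdr1os. The falls of at least 2-fold or close to it had -2.07 for Zbtb20, -2.89 for Scgn, -1.71 for Il16, -1.06 for Ntf3, -1.05 for Cacng6, -1.48 for Lats2, -1.22 for Rasd1, -1.11 for Trpm3, -0.52 for Kcng2 and -1.35 for Amigo2. The rises had 1.41 for Eml2, 1.246 for Max, 0.82 for Dhx9, 0.69 for Dynll2, 0.31 for Car10, 0.31 for Dkk3 and 0.36 for Osbpl1a.

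Genes of translation and energy supply had -0.35 for Rps14, -0.57 for Rpl10a, -0.30 for Rpl24, -0.24 for Rpl14, -0.32 for Rpl11, -0.22 for Ndufb11 and -0.38 for Eif1b. Myelin and oligodendrocyte genes had -0.71 for Mbp, -0.88 for Cnp, -0.94 for Mobp, -1.06 for Mag and -0.32 for Qdpr, and noncoding RNAs -0.99 for Meg3, -0.89 for Snhg11, -1.23 for Malat1 and -0.69 for Miat. Activity-regulated and clock genes had 0.47 for Egr1, 0.71 for Fos, 0.20 for Scg2, 0.55 for Mapk4 and 0.26 for Dbp. Markers of pyramidal neurons had -0.39 for Crym, -0.47 for Bcl11b, -0.24 for Pcp4, 0.75 for Trbc2, -0.77 for Hs3st4 and 0.59 for Nrgn.

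Synaptic genes had 0.31 for Syt1, 0.22 for Syn2, 0.27 for Cplx1, 0.13 for Vamp2, 0.75 for Dlg4, -0.41 for Homer2, -0.23 for Gria1, 0.32 for Cacng3, 0.34 for Grm2, 0.39 for Grm3, -0.44 for Gabra2, 0.24 for Ncald and 0.23 for Hpcal4. Genes of peptides, hormones and their signals had -0.35 for Sst, 0.60 for Npy, 1.72 for Oprk1, 0.37 for Nr3c1, -0.84 for Nr3c2, -0.52 for Mt1, 0.40 for Cdkn1a, -0.37 for Ppp1r1b and -0.54 for Rgs14.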

How the results depend on the processing

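The number of pulldown calls ran from 1170 without the low-count filter to 1969 by DESeq2, against 1535 as reported, and 41.0% were higher in ANH as reported against 48.6% in the fit of only the libraries compared. In Input DESeq2 called 1263 genes, 704 higher and 559 lower, against 766. In the test between fractions the lower calls were 505 by DESeq2, against 300, and the higher calls 146 without the low-count filter, against 238. Higher calls were 44.2% of that test's calls, 36.8% with RLE factors, 33.5% with only the libraries compared and 29.7% without the filter. Of 110 named genes, which leave out Penk and Fkbp4, none changed direction under the 6 alternatives. Miat lost its call under 4 of them, at log2 fold changes of -0.48 to -0.51, and Bdnf gained one by DESeq2.

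With library numbers as a replicate block there were 1625 calls in the pulldown, 915 in Input, 626 between fractions, 1369 for ANH over NS and 775 for RES over NS. The labels tie the numbers to no shared animal or batch. The 6 same-number pairs correlated at -0.0623 to 0.1264, 3 of them over the 0.1 that all 6 would have to pass to count as pairs. Pairs of different numbers reached 0.1307, above the highest same-number pair. Since 7 of 12 libraries correlated best with their own number, the data hold at most a hint of shared variation that the design does not state. Library totals of 19078928 to 27073456 counts bound counting error only, and reads carried no molecular identifiers. The common coefficient of variation of 23.7% in pulldowns exceeded the 18.6% of Input, and its part in what could be called was not tested.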
